A study of Mus musculus with 12 samples.

Results

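Sertoli cells are the somatic nurse cells of the seminiferous tubule, and 9 genes that mark them or carry out their functions were followed here through RNA and ribosome footprints of mouse testes. They were *Clu*, *Inha*, *Inhbb*, *Amh*, *Dhh*, *Fshr*, *Sox9*, *Gata4* and *Wt1*, taken by symbol from the gene rows of the count table, which were 9 of 20620 genes. The testes came from C57BL/6 mice at postnatal day 16 (P16) that were *Mael*+/- or *Mael*-/-. Maelstrom, the product of *Mael*, is a germ cell protein of the piRNA pathway, which represses transposons, and the comparison of genotypes follows RNA and ribosome loading where the retrotransposon LINE-1 is no longer held down. Each of the 4 groups, *Mael*+/- RNA, *Mael*-/- RNA, *Mael*+/- ribofootprint and *Mael*-/- ribofootprint, held 3 replicates. All controls were heterozygous, and the labels do not say how many animals went into an extract. P-values therefore measure the spread between these extracts.

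Sertoli cells hold the germ cells, feed them and pass hormonal signals to them. SOX9, GATA4 and WT1 are transcription factors that direct and maintain Sertoli cell identity. FSHR receives follicle-stimulating hormone from the pituitary, inhibin returns a negative signal to the pituitary, anti-Müllerian hormone (AMH) removes the Müllerian ducts of the male fetus and declines as Sertoli cells mature, and Desert hedgehog (DHH) signals to Leydig and peritubular cells. Clusterin, the product of *Clu*, is a secreted chaperone that is abundant in Sertoli cells.

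Gene counts totalled 13697267 to 27462358 per RNA library and 7609932 to 13233565 per footprint library. *Mael* held 3800 to 5045 counts in *Mael*+/- RNA and 0 to 2 in *Mael*-/- RNA, and 660 to 1294 against 0 to 7 in footprints. The extract of *Mael*+/- replicate 1 stood apart in its germ cells. Its summed level of 13 pachytene markers, genes of later meiotic prophase, was 876 CPM in RNA (CPM, the count divided by the library's gene total and its TMM factor), against 326 and 333 in replicates 2 and 3, and 1016 in footprints, against 349 and 383. Where this extract carries a difference or a spread, the value without it is given too. The samples were whole testes, so fewer Sertoli cells and less RNA per Sertoli cell cannot be told apart in any value below.

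All 9 genes had counts in all 12 libraries, the lowest being 257 counts for *Fshr* in footprints of *Mael*+/- replicate 2. Their summed share of an RNA library was 0.578 to 0.695%, and of a footprint library 0.879 to 1.2%. *Clu* had the most counts in every library and by itself held 71.5 to 75.9% of the members' counts in RNA and 72.8 to 78.8% in footprints. Its counts exceeded those of the next gene of the library 1.15 to 1.6 times in RNA and 1.54 to 2.87 times in footprints. Counts are not divided by gene length, and per length *Clu* ranked 3 of 17624 genes in RNA and 3 of 17325 in footprints. In RefSeq, 0 other genes overlapped any of the 9 on either strand.

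Promoter sequence, from 250 bases before to 50 after the start, was at hand in RefSeq (GRCm38.p6) for *Inha*, *Inhbb*, *Dhh* and *Fshr*, that is 4 of the 9. It was searched on both strands of the 250 bases before the start for GATAA, the core letters bound by GATA factors such as the member GATA4, for AGGTCA, the core bound by nuclear receptors such as NR5A1, and for the E box CACGTG. The 30 bases around each match are shown with the match in capitals, written along the gene's strand, because *Gata4* is both a member and the gene of a factor that reads such letters. GATAA reads TTATC where it lies on the opposite strand.
*Fshr* E box, 61 bases before the start, chr17:89200719-89200748, minus strand: cctttagtgggtCACGTGactttgctgtcc
*Fshr* GATA, 197 bases before the start, chr17:89200855-89200884, minus strand: taggtcttgaagGATAAgacaggtgcttat
*Fshr* GATA, 27 bases before the start, chr17:89200685-89200714, minus strand: agcagatctctcTTATCcggacagtgtgtg
*Dhh* GATA, 221 bases before the start, chr15:98898744-98898773, minus strand: gtagaaggatgcTTATCcaggcagccagga
*Inha* AGGTCA, 69 bases before the start, chr1:75507528-75507557, plus strand: ttggggattggcAGGTCAactttgaagagt

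Of 32851 promoters, 6.02% held CACGTG, 14.02% held AGGTCA and 22.6% held GATAA in the same window. These matches are a description of the letters only, and none of them was tested for binding here. Distances are counted from the start in that promoter set, which for *Inha* (75507609) and *Dhh* (98898540) lies inside the gene's annotated span.

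*Clu* spans 65968483 to 65981548 on the plus strand of chromosome 14 (GRCm38, as are all positions below). In RNA it stood at 4463, 4644 and 5128 CPM in *Mael*+/- replicates 1 to 3 and at 5038, 4452 and 5051 CPM in *Mael*-/-. In footprints it stood at 7107, 7280 and 8965 CPM in *Mael*+/- and at 8749, 7504 and 8060 CPM in *Mael*-/-. The genotypes overlapped in both assays. The log2 fold change of *Mael*-/- over *Mael*+/- was 0.031 (SE 0.092, edgeR adjusted p = 0.987) in RNA and 0.058 (SE 0.12, adjusted p = 0.999) in footprints.

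Among the hormones, *Inha* and *Amh* varied more between libraries than the other members. *Inha* (chromosome 1, 75507077 to 75510366, plus strand) encodes the alpha subunit that all inhibins share. Its RNA was 476, 573 and 776 CPM in *Mael*+/- and 706, 763 and 756 CPM in *Mael*-/-, and its footprints were 663, 977 and 1353 CPM against 1125, 1168 and 1196 CPM. The *Mael*-/- libraries lay close together while the *Mael*+/- libraries spread around them, with a coefficient of variation of 25.2% in RNA and 34.6% in footprints, against 4.21% and 3.08% in *Mael*-/-. In *Mael*+/- replicates 2 and 3 alone it was 21.3% and 22.8%. The log2 fold change was 0.29 (SE 0.15, adjusted p = 0.966) in RNA and 0.22 (SE 0.20, adjusted p = 0.999) in footprints. Without *Mael*+/- replicate 1 it was 0.14 in RNA and -0.0053 in footprints, so the sign in footprints rested on that library. Without *Mael*+/- replicate 3 it was 0.50 in both assays, and neither value passed the test.

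*Inhbb* (chromosome 1, 119415463 to 119422248, minus strand) encodes the beta-B subunit, which forms inhibin B with the alpha subunit and activin B with itself. Its RNA was 266, 331 and 297 CPM in *Mael*+/- and 268, 311 and 306 CPM in *Mael*-/-. Its footprints were 148, 208 and 178 CPM and 163, 191 and 182 CPM. The ranges overlapped and the means differed by little, with log2 fold changes of -0.014 (SE 0.10) in RNA and 0.0089 (SE 0.13) in footprints, edgeR adjusted p = 0.995 and 0.999.

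*Amh* (chromosome 10, 80805240 to 80807679, plus strand) begins 318 bases after *Sf3a2* ends. Its RNA was 53.3, 104 and 97.2 CPM in *Mael*+/- and 51.2, 75.7 and 74.9 CPM in *Mael*-/-, and its footprints were 211, 383 and 371 CPM and 225, 309 and 266 CPM. In each group replicate 1 was the lowest, and replicates 2 and 3 of *Mael*+/- were the highest libraries of both assays. The log2 fold change was -0.33 in RNA (SE 0.23, adjusted p = 0.982) and -0.27 in footprints (SE 0.20, adjusted p = 0.999). Without *Mael*+/- replicate 1 it was -0.58 in RNA (adjusted p = 0.0935) and -0.50 in footprints (adjusted p = 0.267). Without *Mael*+/- replicate 2 it was -0.16 and -0.13, and without replicate 3 it was -0.22 and -0.15, so each of these libraries moved the value. The difference did not pass the test in any of these fits.

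*Dhh* (chromosome 15, 98881615 to 98898562, minus strand) is the hedgehog ligand of the testis. Its RNA was 159, 210 and 204 CPM in *Mael*+/- and 168, 194 and 211 CPM in *Mael*-/-, and its footprints were 135, 202 and 177 CPM and 147, 177 and 177 CPM. Replicate 1 was the lowest of each group. The log2 fold change was 0.00027 (SE 0.13) in RNA and -0.039 (SE 0.14) in footprints, with adjusted p = 0.9999 and 0.999 in edgeR.

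*Fshr* (chromosome 17, 88984952 to 89200675, minus strand), the receptor through which the pituitary drives Sertoli cells, was the least abundant of the 9 and, with *Wt1*, among the steadiest in RNA. Its RNA was 25.3, 24.4 and 24.6 CPM in *Mael*+/- and 24.7, 24.0 and 26.1 CPM in *Mael*-/-, which is 339 to 716 counts per library. Its footprints were 34.8, 33.2 and 39.6 CPM and 39.2, 36.0 and 36.9 CPM. The genotypes overlapped, and the log2 fold changes were 0.0094 (SE 0.10) and 0.058 (SE 0.11), with adjusted p = 0.997 and 0.999 in edgeR.

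Among the transcription factors, *Sox9* (chromosome 11, 112782210 to 112787757, plus strand) had the highest RNA in replicate 1 of both genotypes. It was 68.5, 49.9 and 51.6 CPM in *Mael*+/- and 68.0, 50.1 and 49.6 CPM in *Mael*-/-. Its footprints did not follow, with 278, 339 and 342 CPM in *Mael*+/- and 347, 340 and 309 CPM in *Mael*-/-. The log2 fold change was -0.023 (SE 0.16) in RNA and 0.053 (SE 0.11) in footprints, with adjusted p = 0.995 and 0.999 in edgeR.

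*Gata4* (chromosome 14, 63198914 to 63271712, minus strand) is made by Leydig as well as Sertoli cells. Its RNA was 126, 145 and 132 CPM in *Mael*+/- and 134, 132 and 133 CPM in *Mael*-/-, and its footprints were 118, 177 and 160 CPM and 138, 146 and 136 CPM. *Wt1* (chromosome 2, 105126529 to 105173614, plus strand) had RNA of 242, 233 and 229 CPM and 244, 226 and 232 CPM, and footprints of 319, 399 and 370 CPM and 365, 353 and 362 CPM. Both had narrow ranges in *Mael*-/-, with coefficients of variation in footprints of 3.91% for *Gata4* and 1.67% for *Wt1*, against 19.7% and 11.3% in *Mael*+/-. Without replicate 1, the lowest *Mael*+/- library of both genes, they were 7.14% and 5.41% in *Mael*+/-. The log2 fold changes of *Gata4* were -0.016 (SE 0.083) in RNA and -0.11 (SE 0.13) in footprints, and those of *Wt1* were -0.0018 (SE 0.078) and -0.011 (SE 0.10), none of which passed the edgeR test.

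**Figure D1:**
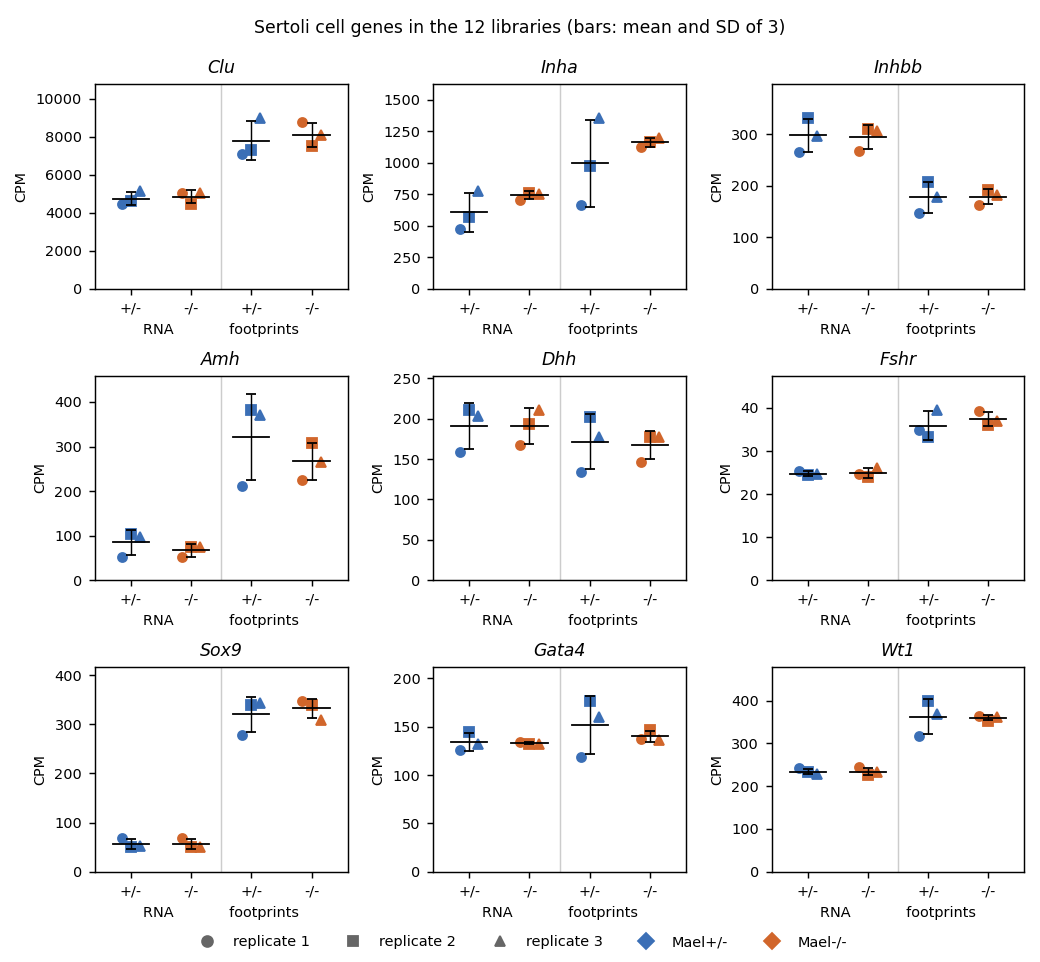
Level of each of the 9 genes in CPM (vertical axis, from 0) in each RNA and footprint library, with *Mael*+/- in blue and *Mael*-/- in orange, circles, squares and triangles for replicates 1 to 3, and black bars for the mean and SD of 3. The genotypes overlap in every panel, and *Amh*, *Dhh* and *Inhbb* have their lowest value in replicate 1 of every group.

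No difference between genotypes was called for the 9 genes. In RNA, edgeR called 0 of 9 at an adjusted p under 0.05, beside 17 of all 14685 genes tested (0.116%), and 0 of 9 had an unadjusted p under 0.05, beside 5.4% of all genes. In footprints it called 0 of 9, beside 8 of 13500 genes (0.0593%), with 0 of 9 at an unadjusted p under 0.05, beside 4.33%. DESeq2 also called 0 of 9 in each assay. Without *Mael*+/- replicate 1, edgeR again called 0 of 9 in either assay, and 1 of 9 in RNA (*Amh*) and 2 of 9 in footprints (*Amh* and *Gata4*, both lower) had an unadjusted p under 0.05, beside 6.41% and 6.12% of all genes. The genotypes were without overlap for 0 of 9 genes in RNA and 0 of 9 in footprints, beside 10.3% and 9.09% of all genes.

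The size of a difference that these libraries leave room for was set by gene. For the 7 members other than *Amh* and *Inha*, the 95% confidence intervals lay between 0.771- and 1.26-fold in RNA and between 0.752- and 1.25-fold in footprints. With *Amh* and *Inha* included they reached 0.553- and 1.55-fold in RNA and 0.609- and 1.59-fold in footprints. The median log2 fold change of the 9 was -0.0018 in RNA and 0.0089 in footprints, beside -0.0013 and -0.0085 for all genes tested. Without *Mael*+/- replicate 1 it was -0.012 and -0.098, beside 0.0020 and -0.0049, so the value in footprints rested on that library. With all libraries, the median absolute size was 0.016 and 0.058, beside 0.096 and 0.097. The median SE of the 9 was 0.104 and 0.128, beside 0.127 and 0.135, so these sizes were not measured with equal precision.

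Translation efficiency, the change of footprints beyond that of RNA, was fitted over the 12 libraries as the term in which genotype and assay interact. It was called for 0 of 9 members in edgeR, beside 0 of 13448 genes (0%), with 0 of 9 at an unadjusted p under 0.05, beside 0.402%, and for 0 of 9 in DESeq2. The log2 values ran from -0.098 for *Gata4* to 0.077 for *Sox9*. The intervals reached 0.614- to 1.78-fold, both bounds being those of *Amh*, and 0.712- to 1.43-fold in the 7 members other than *Amh* and *Inha*. This fit did not pair RNA and footprints of an extract, so differences between extracts entered these intervals. With the extracts paired, *Amh* was at 0.064 with an SE of 0.10 in place of 0.36. *Inha* was then at -0.035 with an SE of 0.11 in place of 0.29, and 0 of 9 were called. With both libraries of *Mael*+/- extract 1 left out, which was tried after seeing the data, 0 of 9 were called and *Sox9* stood at -0.17 in place of 0.077.

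**Figure D2:**
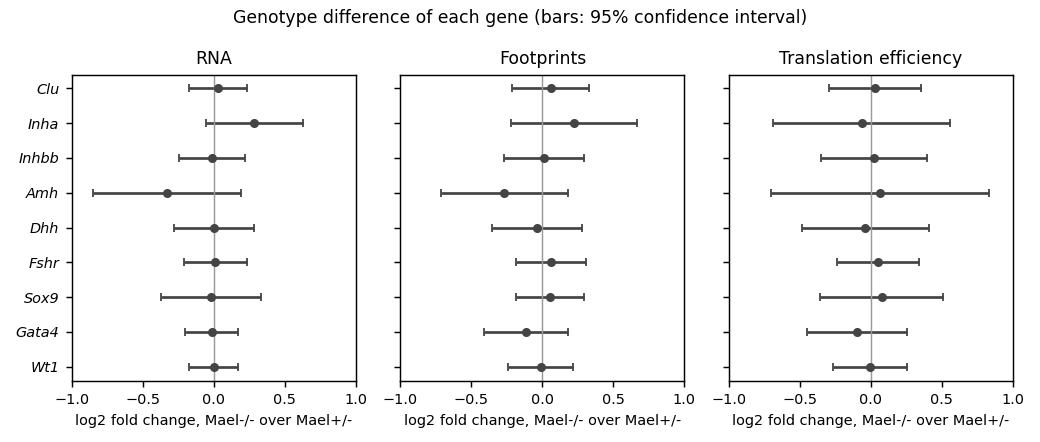
Log2 fold change of *Mael*-/- over *Mael*+/- (horizontal axis) for each gene for RNA, for footprints and for translation efficiency, with points for the edgeR estimate and bars for its 95% confidence interval. All intervals include 0, and those of *Amh* and *Inha* are among the widest in each panel.

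The 9 genes differed far more in how many footprints they carried for their RNA than between genotypes, and so did all genes tested. The median absolute log2 value of footprints over RNA was 0.71 for the 9 and 0.45 for all genes. Between genotypes it was 0.096 in RNA and 0.097 in footprints for all genes. Footprints over RNA were tested over both genotypes, relative to the median gene. At an adjusted p under 0.05 edgeR called 8 of the 9 members, 7 higher and 1 lower. Of all 13448 genes, 69.7% were called, 34.2% higher and 35.5% lower, so a call by itself sets few genes apart. RNA was counted over the whole mRNA and footprints over the coding sequence alone, and the share of coding bases in the mRNA differs among the members, from 28.1% in *Dhh* to 97.7% in *Amh*. The values are therefore given as counted and per length, that is footprints per coding base against RNA per base of mRNA.

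*Sox9* had the most footprints for its RNA on either scale. In each extract the ratio of footprint CPM to RNA CPM was 4.06, 6.81 and 6.63 in *Mael*+/- and 5.11, 6.78 and 6.24 in *Mael*-/-, so it was lowest in replicate 1 of each genotype, where *Sox9* RNA was highest. Relative to the median gene it was 6.14-fold higher as counted (log2 2.62, SE 0.11, edgeR adjusted p = 3.58e-11), at percentile 99.5 of all genes. Per length it was 8.64-fold higher (log2 3.11, SE 0.11), at percentile 99.6 of 13395 genes. Only 36.8% of the *Sox9* mRNA is coding.

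*Amh* came next, with ratios of 3.95, 3.68 and 3.81 in *Mael*+/- and 4.39, 4.08 and 3.55 in *Mael*-/-. The ratios lay close together although its RNA ranged from 51.2 to 104 CPM. It was 4.09-fold higher than the median gene as counted (log2 2.03, SE 0.19, adjusted p = 1.91e-07, percentile 98.8) and 2.16-fold higher per length (log2 1.11, SE 0.18, percentile 89.98).

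*Clu*, *Inha* and *Wt1* were also higher on both scales, with log2 values as counted and per length of 0.81 and 0.29 for *Clu*, 0.76 and 0.90 for *Inha*, and 0.71 and 0.75 for *Wt1*. *Gata4* had 0.20 as counted (SE 0.083, edgeR adjusted p = 0.0395) and 0.61 per length. The call as counted was lost in 10 of 12 fits without 1 library, which did not pair RNA and footprints of an extract. With the extracts paired and all libraries kept, *Gata4* as counted was at 0.20 with an SE of 0.054 (edgeR adjusted p = 0.00195). The remaining members depended on the scale. *Fshr*, which is mostly coding, had 0.64 as counted and -0.13 per length (adjusted p = 0.104), *Inhbb* had -0.65 as counted (adjusted p = 1.03e-05) and 0.18 per length (adjusted p = 0.0752), and *Dhh* had -0.097 as counted (adjusted p = 0.424) and 0.78 per length (adjusted p = 1.05e-05). Per length, 7 of the 9 were called, all 7 higher, beside 70.8% of genes called and 36.1% called higher. Without both libraries of *Mael*+/- extract 1 the values as counted were close to these, with 2.75 for *Sox9*, 2.03 for *Amh* and 8 of 9 called. Calls of higher footprints were not particular to the 9. As counted they were made for 18 of 24 other Sertoli markers, 7 of 9 Leydig, 6 of 6 peritubular myoid, 5 of 6 macrophage and 7 of 8 spermatogonial markers. Of early meiotic markers 4 of 8 were called higher, of endothelial markers 1 of 5 and of pachytene markers 1 of 7. Genes of the AMH pathway were called higher for 2 and lower for 5 of 7, and those of inhibin and activin for 2 and 5 of 11. For hedgehog these were 6 and 3 of 14, for FSH 4 and 5 of 12, and for testis determination factors 8 and 3 of 14. Values per length are not given for these lists.

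**Figure D3:**
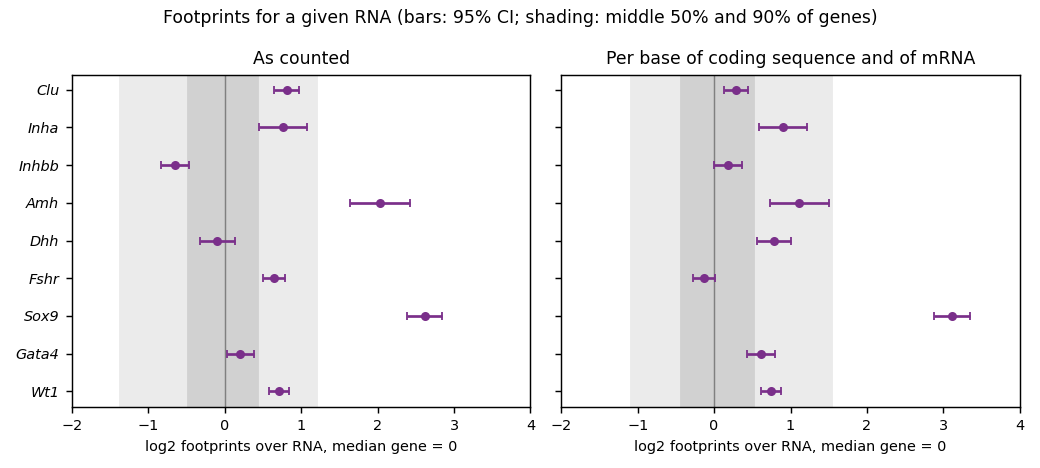
Log2 footprints over RNA of each gene relative to the median gene (horizontal axis), as counted on the left and per base of coding sequence and of mRNA on the right, with bars for the 95% confidence interval and shading for the middle 50% and 90% of all genes. *Sox9* lies to the right of the shading in both panels, and *Inhbb*, *Dhh* and *Fshr* change sides between them.

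Levels of different genes can be compared only per length. In RNA, as CPM per kilobase of mRNA over 6 libraries, the order was *Clu* (2648 ± 172, SD), *Inha* (289 ± 52.6), *Wt1* (75.8 ± 2.29), *Inhbb* (69.6 ± 5.97), *Dhh* (45.1 ± 5.29), *Amh* (44.7 ± 12.8), *Gata4* (39.2 ± 1.78), *Sox9* (13.6 ± 2.24) and *Fshr* (10.5 ± 0.322). The ranges overlapped between *Wt1* and *Inhbb*, and in the run from *Dhh* through *Amh* to *Gata4*, and these neighbours are not ordered beyond their spread. *Clu* ranked 3 of 17624 genes on this scale, and *Sox9* ranked 6412.

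In footprints, as CPM per kilobase of coding sequence, *Clu* (5898 ± 579) and *Inha* (981 ± 216) again led. *Wt1* (232 ± 16.8), *Sox9* (214 ± 17.7), *Amh* (177 ± 43.7), *Inhbb* (144 ± 17.1), *Dhh* (142 ± 20.5) and *Gata4* (110 ± 15.2) followed, each overlapping with the next, and *Fshr* (17.6 ± 1.19) stood apart as the lowest. *Sox9* thus ranked 531 of 17325 genes in footprints, while *Fshr* stayed low at 7799.

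**Figure D4:**
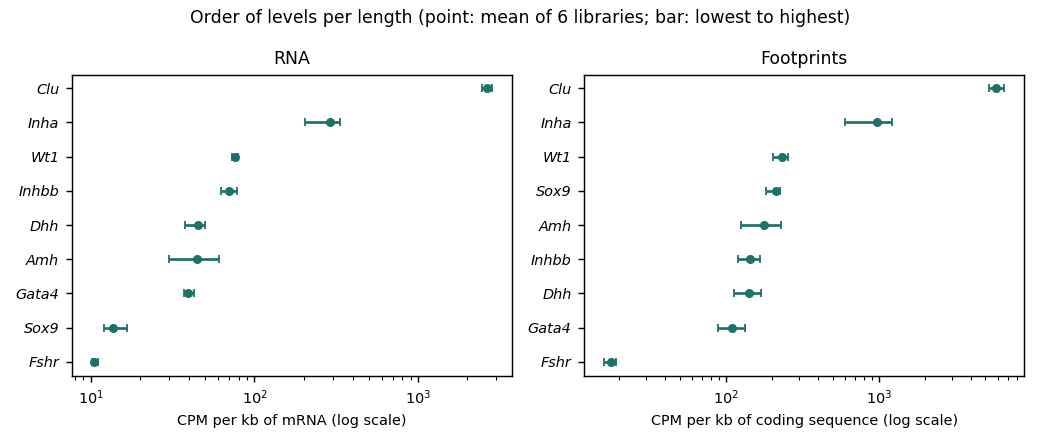
Level of each gene per kilobase on log axes, RNA per kilobase of mRNA on the left and footprints per kilobase of coding sequence on the right, ordered from the highest at the top, with points for the mean of 6 libraries and bars from the lowest to the highest library. *Clu* leads in both, and *Sox9* moves from just above *Fshr* in RNA into the middle group in footprints.

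Across extracts the members did not move as a block in RNA, while in footprints 2 libraries had all 9 on the same side of their means. Set against its mean over the 6 libraries of an assay on the log2 scale, replicate 1 of both genotypes had the lowest *Amh*, *Dhh* and *Inhbb* and, in RNA, the highest *Sox9*. In RNA, *Amh* stood at -0.46 and -0.52 in replicate 1 of *Mael*+/- and *Mael*-/-, and *Sox9* at 0.30 and 0.29. *Wt1* stayed between -0.051 and 0.059, and *Fshr* between -0.049 and 0.070, in the 6 RNA libraries. The labels name no batch for the replicate numbers, and what these extracts share was not tested.

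In footprints of *Mael*+/- replicate 1 all 9 members were below their mean, by 0.29 on average, and in *Mael*+/- replicate 3 all 9 were above it, by 0.15. Replicate 1 is the extract with the high pachytene markers. Its 9 members summed to 9013 CPM in footprints, against 9999 and 11955 in the other *Mael*+/- extracts and 10225 to 11298 in *Mael*-/-. CPM are shares of a library, and the part of its germ cell share in these lower values was not tested.

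**Figure D5:**
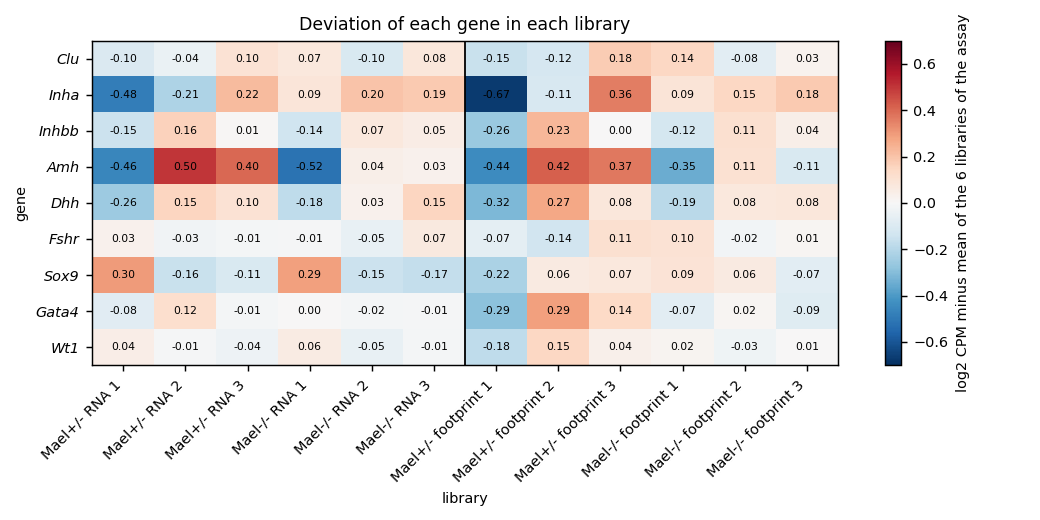
Log2 CPM of each gene minus its mean over the 6 libraries of the same assay, printed in each cell (red above, blue below the mean), by gene (rows) and library (columns, RNA left and footprints right of the line). *Amh*, *Dhh* and *Inhbb* are blue in replicate 1 of all 4 groups, *Sox9* is red there in RNA, and the *Mael*+/- footprint column of replicate 1 is blue throughout.

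Other markers of Sertoli cells were followed in the same fits. Of 24 such genes, all tested, 0 were called in RNA, footprints or translation efficiency, with a median log2 fold change of 0.037 in RNA and 0.046 in footprints, and an unadjusted p under 0.05 for 1 gene in each, beside 5.4% and 4.33% of all genes. Without *Mael*+/- replicate 1 the medians were -0.010 and -0.039, and 0 were called. An unadjusted edgeR p under 0.05 was then found for 6 genes in RNA and 2 in footprints, beside 6.41% and 6.12% of all genes. Single genes lay between -0.44 and 0.40 in RNA and between -0.48 and 0.47 in footprints, and 2 were higher in *Mael*-/- RNA without overlap, beside 5.23% of all genes. The most abundant were *Ctsl*, the protease cathepsin L, with 1572 ± 226 CPM in *Mael*+/- and 1544 ± 152 in *Mael*-/- RNA (SD, n = 3), *Aard*, with 1007 ± 22.7 and 1009 ± 74.0, and *Cldn11*, a tight junction protein of the blood-testis barrier, with 677 ± 75.3 and 731 ± 18.3. Of 18 testis determination factors and cofactors, some of which are also among those 24, 15 were tested in RNA and 0 called. Among them were *Dmrt1* with 332 ± 21.2 and 327 ± 16.5 CPM, *Nr5a1*, the steroidogenic factor that works with SOX9 on *Amh*, with 224 ± 22.2 and 231 ± 13.0, and *Nr0b1* with 112 ± 10.02 and 131 ± 2.99. The *Nr0b1* difference (log2 0.22, SE 0.090, edgeR adjusted p = 0.900) did not pass the test.

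The pathways into which the 9 genes signal held 0 called genes in RNA, footprints or translation efficiency. For AMH, the receptor *Amhr2* had 711 ± 103 CPM of RNA in *Mael*+/- and 784 ± 75.4 in *Mael*-/-, its partner receptor *Bmpr1a* 224 ± 26.9 and 212 ± 9.45, and *Smad5*, which passes on the signal, 109 ± 10.8 and 97.9 ± 6.11, with 7 of 7 genes of this list tested. For inhibin and activin, 13 of 13 genes were tested in RNA with a median log2 fold change of -0.079, and the signal transducers *Smad2*, *Smad4* and *Smad3* had 183 ± 3.79, 142 ± 7.38 and 93.9 ± 18.3 CPM in *Mael*+/- against 172 ± 5.92, 133 ± 6.42 and 94.0 ± 3.78.

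For hedgehog, 15 of 16 genes were tested in RNA, with a median of -0.015. The receptor *Ptch1*, which is also a target of the pathway, had 120 ± 15.1 and 115 ± 13.5 CPM, *Smo*, which carries the signal, 117 ± 22.4 and 113 ± 10.8, and the co-receptor *Cdon* 80.7 ± 13.3 and 73.8 ± 6.76. Downstream of FSH, 12 of 12 genes were tested with a median of -0.024, and *Gnas*, the stimulatory G protein subunit, had 779 ± 51.4 and 769 ± 22.3 CPM, with 251 ± 24.4 and 242 ± 5.72 for *Prkar1a* and 182 ± 2.02 and 181 ± 7.24 for *Prkaca*, which are subunits of protein kinase A.

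Markers of other cells were followed because several members are not made by Sertoli cells alone. Leydig cells also make *Gata4* and *Inha*, and the summed level of 9 Leydig markers ran from 413 to 666 CPM in *Mael*+/- RNA and from 370 to 690 CPM in *Mael*-/- RNA, with 0 of the 9 at 0 in any library. In *Mael*+/- replicates 1 to 3 it was 413, 465 and 666 CPM beside *Inha* RNA of 476, 573 and 776 CPM, and in *Mael*-/- it was 370, 544 and 690 CPM beside 706, 763 and 756 CPM. The part of Leydig cells in the *Inha* level was not tested. Among the most abundant markers, *Hsd3b1* had 168 ± 18.3 and 164 ± 18.7 CPM, *Star* 93.8 ± 48.6 and 85.3 ± 47.6, and *Cyp11a1* 68.2 ± 22.5 and 79.2 ± 27.0, all 3 acting in steroid synthesis.

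Other somatic lists had 0 called genes in RNA or footprints. The 6 peritubular myoid markers summed to 889 to 933 CPM in *Mael*+/- RNA and 1004 to 1056 CPM in *Mael*-/- RNA, and 5 of the 6 were higher in *Mael*-/- without overlap, beside 5.23% of all genes. In footprints 1 of the 6 was, beside 4.24%, and the summed ranges overlapped, at 1162 to 1438 CPM against 1417 to 1756 CPM. The list was led by *Acta2* (508 ± 19.2 and 564 ± 26.6 CPM), *Myh11* (300.3 ± 11.1 and 345 ± 31.5) and *Tagln* (59.2 ± 3.82 and 68.4 ± 1.88), which encode contractile proteins. Macrophage markers summed to 144 to 240 CPM in *Mael*+/- RNA and 224 to 231 in *Mael*-/- RNA (*Mrc1* 72.4 ± 21.3 and 89.9 ± 11.8, *Csf1r* 31.0 ± 7.84 and 39.5 ± 1.57, *C1qc* 26.2 ± 9.75 and 34.0 ± 3.00), and endothelial markers to 75.8 to 89.5 and 78.2 to 92.3 (*Cdh5* 33.3 ± 0.458 and 33.7 ± 3.70, *Kdr* 16.4 ± 3.93 and 16.9 ± 1.2, *Pecam1* 15.6 ± 2.43 and 16.4 ± 1.97).

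Germ cell markers had 0 called genes in RNA or footprints with all libraries in the fit. Spermatogonial markers summed to 714 to 885 CPM in *Mael*+/- RNA and 731 to 784 in *Mael*-/- RNA, with *Uchl1* at 339 ± 48.5 and 340 ± 29.4, *Kit* at 117 ± 12.9 and 103 ± 7.70 and *Stra8* at 91.9 ± 17.8 and 98.98 ± 11.6. Early meiotic markers summed to 744 to 2029 and 693 to 1030 CPM, with *Sycp1* at 342 ± 234 and 256 ± 74.2, *Sycp2* at 332 ± 195 and 203 ± 43.0 and *Sycp3* at 242 ± 165 and 171 ± 38.8. The upper end in *Mael*+/- was replicate 1, and the list's median log2 fold change in RNA was -0.36 with it and 0.093 without it.

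Pachytene markers summed to 326 to 876 CPM in *Mael*+/- RNA and 261 to 298 in *Mael*-/- RNA, led by *Hspa2* (206 ± 129 and 97.4 ± 4.57), *Tcfl5* (108 ± 31.9 and 83.5 ± 3.06) and *Mybl1* (85.8 ± 34.3 and 72.8 ± 10.5). In RNA 6 of the 9 tested had an unadjusted p under 0.05 (5.4% of all genes) and 5 were lower in *Mael*-/- without overlap (5.03%), and in footprints these were 6 and 5 of 7 (4.33% and 4.84%). The median log2 fold change was -1.22 in RNA and -1.37 in footprints. Without *Mael*+/- replicate 1 it was -0.43 and -0.58, and 1 gene was then called in RNA, *Hspa2* (log2 -0.43, SE 0.089, edgeR adjusted p = 0.0498).

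The genes outside these lists whose RNA followed the mean profile of the 9 members most closely over the 6 RNA libraries were, of 8715 genes with at least 20 CPM, *9030624J02Rik* (r = 0.995), *Lztr1* (0.993), *Tsr1* (0.992), *Klhl26* (0.987) and *Inppl1* (0.986). The profile spans only -0.13 to 0.07 on the log2 scale, so small differences set these values. Nor is it a profile that all 9 share. In RNA, *Sox9* (r = -0.912), *Wt1* (-0.719) and *Fshr* (-0.226) ran against the other members, while the rest had r from 0.306 to 0.884. Over the 6 footprint libraries the values of *9030624J02Rik* to *Inppl1*, in the order above, were 0.685, 0.723, -0.167, 0.923 and 0.935. *Tsr1* did not keep its likeness there, and footprints of the same extracts are no separate check of the others. These genes were picked as the highest r of 8715 over only 6 libraries, so their high r is no evidence of a link. They are a description over libraries of shared extracts and depth.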

How the data were processed

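Per the labels, the authors collected P16 testes in cycloheximide and homogenized them. They made stranded, rRNA-depleted libraries from total RNA and sequenced footprints left by micrococcal nuclease. Per the labels, reads were aligned to mm10 with STAR 2.6.0c and counted with featureCounts of Subread 1.6.4. RNA was counted over whole mRNAs and footprints over coding sequence, and collapsing of duplicate reads is not stated. The deposited values are raw counts of genes and repeat copies. The deposited tables of DESeq2 results hold the authors' own fold changes and p-values and were not used.

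All genes were fitted with edgeR 4.0.16 in R 4.3.3 (quasi-likelihood F-tests, TMM within each assay, default filter on low counts, Benjamini-Hochberg adjustment over all genes tested, threshold 0.05). SE is the log2 fold change divided by the root of F. Footprints over RNA were averaged over genotypes and centred on the median gene. Lengths came from RefSeq on GRCm38 for 20409 genes. The tests were also run on simulated counts of independent libraries, with the same dispersion for all genes. That simulation held no shared extracts and no outlying extract, so it does not check the tests for these.

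RNA and footprints of an extract deviated together over 11510 genes (r = 0.804, 0.662 and 0.717 in *Mael*+/-, 0.264, 0.284 and 0.271 in *Mael*-/-), and the labels and methods say that both came from aliquots of an extract, so these were treated as pairs in an alternative fit. Members and lists were chosen with earlier results of these data known. All 9 members are named, and of each other list the called genes and the 3 with the highest mean RNA, and the 5 genes outside the lists most like the members in RNA. Deviations use log2(CPM + 0.5). Repeat copies inside members were not summed, because their rows carry no coordinates. Alternatives were DESeq2 1.42.0, median-of-ratios factors, no filter, a mean of at least 50 counts, a replicate block, scaling to 24 other Sertoli markers, per-length values and leaving out each library. Leaving *Mael*+/- extract 1 out of translation efficiency, footprints over RNA, the lists and the spreads was added after seeing the data.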

Additional observations from a re-analysis of the deposited data

How the results depend on the processing

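The count of members called was 0 in each comparison of genotypes under every alternative run, and 7 or 8 for footprints over RNA. With a replicate block the counts were 0, 0, 0 and 8, and over all genes 50, 23 and 0 were called between genotypes. Between genotypes, libraries of the same replicate number had r from -0.035 to 0.285 over 11510 genes. The upper values are of the size seen within *Mael*-/- extracts (0.264 to 0.284), so these values cannot tell whether replicate numbers pair the genotypes. With the block, *Amh* in RNA was at -0.30 with an SE of 0.10 in place of 0.23 (edgeR adjusted p = 0.520). *Inha* in RNA was then at 0.31 with an SE of 0.11 in place of 0.15 (edgeR adjusted p = 0.548). The SE in RNA went from 0.16 to 0.094 for *Sox9* and from 0.10 to 0.11 for *Fshr*. The block, extract pairing included, changed no member's call. Scaling to other Sertoli markers moved the members' median in RNA to -0.075 and the RNA values of *Clu* to -0.036, *Fshr* to -0.066 and *Dhh* to -0.066, and that of *Inhbb* in footprints to -0.033. *Dhh* in RNA, at 0.00027, became -0.0051 with median-of-ratios factors, -0.0067 without a filter and -0.0017 at a mean of 50 counts. Per length, footprints over RNA became -0.13 for *Fshr*, 0.18 for *Inhbb* and 0.78 for *Dhh*, since coding shares enter. Without both libraries of *Mael*+/- extract 1, translation efficiency was -0.17 for *Sox9* and -0.021 for *Inhbb*.

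Leaving out each library in turn gave these ranges of log2 values that crossed 0. In RNA they were -0.012 to 0.090 for *Clu*, -0.19 to 0.13 for *Sox9*, -0.060 to 0.040 for *Gata4*, -0.035 to 0.020 for *Wt1*, -0.027 to 0.033 for *Fshr*, -0.090 to 0.069 for *Inhbb* and -0.12 to 0.080 for *Dhh*. In footprints they were -0.0053 to 0.17 for *Clu*, -0.040 to 0.11 for *Sox9*, -0.27 to 0.0081 for *Gata4*, -0.098 to 0.063 for *Wt1*, -0.0053 to 0.50 for *Inha*, -0.11 to 0.14 for *Inhbb* and -0.19 to 0.095 for *Dhh*. In translation efficiency they were -0.035 to 0.14 for *Clu*, -0.081 to 0.24 for *Sox9*, -0.25 to 0.024 for *Gata4*, -0.095 to 0.065 for *Wt1*, -0.17 to 0.31 for *Amh*, -0.0024 to 0.13 for *Fshr*, -0.29 to 0.22 for *Inha*, -0.096 to 0.15 for *Inhbb* and -0.19 to 0.095 for *Dhh*. Over all genes these fits called 2 to 64 in RNA and 2 to 17 in footprints, the upper ends being those without *Mael*+/- replicate 1. DESeq2 called 59 and 22 genes, and at a mean of 50 counts 4 and 1 were called.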
